A study of Mus musculus with 11 samples.

Results

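The Id, Hes and Hey genes encode repressors of the helix-loop-helix class of transcription factors. All 10 genes with these symbols (Id1, Id2, Id3, Id4, Hes1, Hes5, Hes6, Hey1, Hey2 and Heyl) were chosen by name from the 48709 gene IDs counted in each library, and each symbol matched 1 Ensembl mouse gene ID. RNA sequencing was done on primary mouse hippocampal neurons, cells taken from the hippocampus and grown for 10 days at 20% oxygen. In the hypoxia group (5 libraries) the cells were then held at 1% oxygen for 4 h, and in the control group (6 libraries) cells of the same isolation stayed at 20% oxygen. The labels give no strain, age or genotype, and nothing says that the libraries of a group are separate isolations or dishes. The p-values therefore rest on spread among libraries that may be technical.

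Id proteins hold a helix-loop-helix domain but no basic region, so they pair with E proteins and with proneural factors and keep them off DNA. Hes and Hey proteins bind DNA themselves. Hes proteins such as Hes1 and Hes5 recruit Groucho (TLE) corepressors through the end of the protein, while Hey proteins have a variant of that end and are known to repress mainly through other corepressors, such as NCoR and Sin3 complexes. Hes1, Hes5, Hey1, Hey2 and Heyl are known as direct targets of Notch signalling through the DNA-binding protein RBPJ, Id1, Id2 and Id3 as direct targets of bone morphogenetic protein (BMP) signalling through SMAD proteins, and Hes6 as an inhibitor of Hes1 that favours neuron formation. In the hippocampus several of these genes are used by neural stem cells and astrocytes, while Id2 and Hes6 are also expressed in neurons.

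After 4 h at 1% oxygen, Hes5, Id3 and Id4 fell and Hey2 rose. The other 5 genes tested (Id1, Id2, Hes1, Hes6 and Hey1) did not pass the threshold, an adjusted p under 0.05 in edgeR's quasi-likelihood test fitted across 16235 genes. Heyl was too low to be tested. With 3 of 9 genes lower and 1 of 9 higher, these counts stand beside 12.8% of all tested genes called lower, 10.1% called higher and 22.9% called in either direction. DESeq2 called the same 3 genes lower, beside 10.4% of all its tested genes, and Hey2 and Id2 higher, beside 11.7%. The authors' deposited tables also list Hes5, Id3 and Id4 as lower and Hey2 and Id2 as higher, beside 5.13% and 6.36% of all gene IDs with at least 1 count. In none of the 9 genes did every hypoxia library lie above every control library, which held for 6.72% of all tested genes. Every hypoxia library lay below every control library in 2 of the 9, Hes5 and Id3, beside 7.26% of all tested genes. Without hypoxia 5, a library that stood apart, 4 of the 9 genes were called lower and 0 higher. That fit called 2042 lower and 1721 higher of all 16377 genes it tested. The median log2 fold change was 0.01 over the 9 genes and -0.02 over all tested genes.

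The promoters of the genes that changed are shown because these genes are read here through Notch, BMP and hypoxia signalling, whose factors have known DNA motifs. RefSeq's promoter table for GRCm38.p6 (the same assembly as mm10) held 6 of the 10 genes, each as 250 bases before and 50 bases after a start site, and the 4 sequences below run 5′ to 3′ on the gene's own strand. Capitals mark, on either strand, the RBPJ core TGGGAA, the BMP SMAD element GGCGCC and the hypoxia response element cores ACGTG and GCGTG, which can overlap one another.
Hes5 (chr4:154960673-154960972, plus strand): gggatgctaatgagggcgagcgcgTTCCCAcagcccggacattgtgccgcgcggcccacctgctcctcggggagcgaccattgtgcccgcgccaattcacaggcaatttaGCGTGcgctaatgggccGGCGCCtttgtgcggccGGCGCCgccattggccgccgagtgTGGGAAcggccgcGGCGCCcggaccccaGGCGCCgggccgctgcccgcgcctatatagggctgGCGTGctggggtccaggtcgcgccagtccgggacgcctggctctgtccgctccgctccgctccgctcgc
Id3 (chr4:136143572-136143871, plus strand): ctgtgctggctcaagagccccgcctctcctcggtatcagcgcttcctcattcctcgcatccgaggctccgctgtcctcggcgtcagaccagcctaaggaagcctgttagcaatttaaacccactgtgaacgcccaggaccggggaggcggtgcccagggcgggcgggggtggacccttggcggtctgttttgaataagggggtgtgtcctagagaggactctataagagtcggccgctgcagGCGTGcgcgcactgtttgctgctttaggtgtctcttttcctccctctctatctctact
Id4 (chr13:48260866-48261165, plus strand): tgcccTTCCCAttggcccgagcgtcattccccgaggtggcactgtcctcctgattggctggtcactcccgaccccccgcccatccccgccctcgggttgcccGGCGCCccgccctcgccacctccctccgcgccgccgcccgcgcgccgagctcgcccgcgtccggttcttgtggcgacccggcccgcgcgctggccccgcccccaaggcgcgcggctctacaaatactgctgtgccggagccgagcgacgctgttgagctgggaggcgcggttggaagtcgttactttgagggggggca
Hey2 (chr10:30842734-30843033, minus strand): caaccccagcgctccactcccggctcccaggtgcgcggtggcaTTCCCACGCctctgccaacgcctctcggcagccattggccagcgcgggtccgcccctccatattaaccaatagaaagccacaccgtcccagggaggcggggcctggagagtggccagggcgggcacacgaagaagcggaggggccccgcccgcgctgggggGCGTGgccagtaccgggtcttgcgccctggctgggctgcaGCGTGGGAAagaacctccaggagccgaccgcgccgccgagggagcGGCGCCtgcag

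The Hes5 window held the RBPJ core at 2 places, one on each strand, with matches beginning 226 and 82 bases before the start site, and it held GGCGCC at 4 places. The Hey2 window also held the RBPJ core at 2 places, beginning 207 and 3 bases before the start site, and GGCGCC at 1. The Id4 window held each of these motifs at 1 place, and the Id3 window held neither. Of 32851 promoter windows of this length, 25.6% held TGGGAA and 11.9% held GGCGCC on either strand. Bases G and C made up 72.7% of the Hes5 window, 60% of Id3, 73.3% of Id4 and 72% of Hey2. The shares over all windows were not matched for this content, and GGCGCC holds only G and C. The hypoxia core GCGTG was in the Hes5, Id3 and Hey2 windows, beside 32.4% of all windows, and ACGTG was in none of the 7 windows of the 6 genes (Hes6 has 2), beside 19.6% of all. A match describes the letters and was not tested as a binding site.

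The genes differed widely in level. On the RPKM scale (CPM, defined below, per kilobase of exon), with exon lengths from GENCODE M21, Id2 stood highest in control at 14.4 ± 1.13 and Hes6 next at 13.8 ± 1.05 (SD, n = 6), and the ranges of these 2 genes overlapped. Hey1 at 6.53 ± 0.299 and Id3 at 6.23 ± 0.830 followed, again with overlapping ranges, and then Id4 at 4.03 ± 0.332. Hes1 (2.16 ± 0.253) overlapped Id1 (1.46 ± 0.260), which overlapped Hes5 (1.32 ± 0.141). Hey2 lay at 0.517 ± 0.121 and Heyl at 0.0550 ± 0.0226, each apart from its neighbours.
The order by mean RPKM was the same in hypoxia. There Id3 (4.20 ± 0.630, n = 5) no longer overlapped Hey1 (6.58 ± 0.481), and Hes5 (0.744 ± 0.190) overlapped Hey2 (0.720 ± 0.107).

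**Figure D1:**
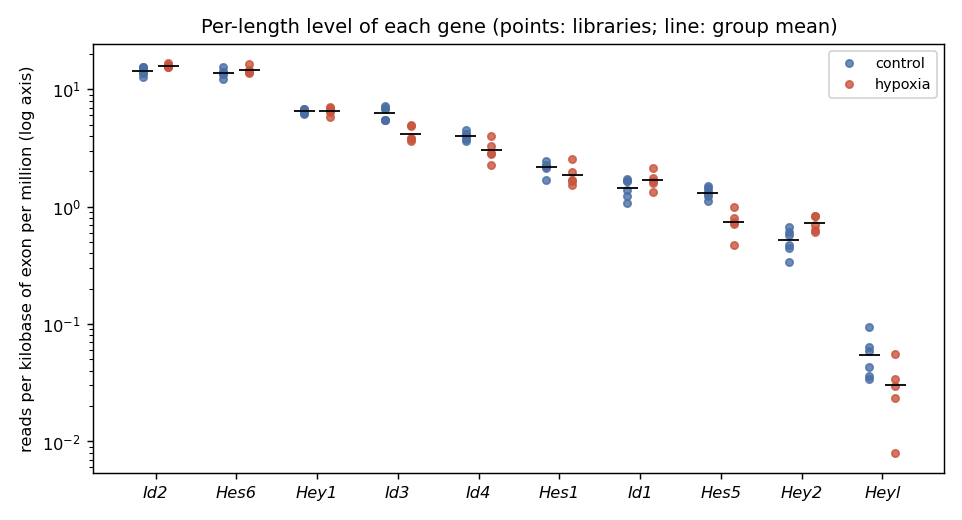
Level of each gene in RPKM (log axis), with 1 point per library, control in blue, hypoxia in red, and a line at each group mean. Id2 and Hes6 stand highest, Heyl lowest, and the control and hypoxia points separate for Id3 and Hes5.

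In bulk RNA, fewer cells of a type and less RNA per cell cannot be told apart, which holds for every difference given here. Levels below are CPM, the counts per 1000000 counts of a library with TMM-scaled library sizes, and a log2 fold change is hypoxia over control. Library totals ran from 16619493 counts in control 1 to 31917157 in hypoxia 5. Hypoxia 5 lay apart from the other hypoxia libraries on PC2 and PC3 of a principal component analysis, and it was the highest hypoxia library for 8 of the 10 genes, beside 26.9% of all tested genes. The summed level of 9 fibroblast and meningeal markers was 445 CPM in hypoxia 5 and 240 to 303 CPM in the other hypoxia libraries, and the part of this in the values below was not tested. The exposure was visible in known targets of the hypoxia-inducible factor HIF, of which 11 of 12 rose, and hypoxia 5 was within the range of the other hypoxia libraries in their median log2 ratio to control (1.05 in hypoxia 5, with 0.977 to 1.16 in the others). Kdm3a, Slc2a1 and P4ha1, whose products are a histone demethylase, a glucose transporter and a collagen hydroxylase, rose by log2 fold changes of 1.32, 1.55 and 1.01.

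**Figure D2:**
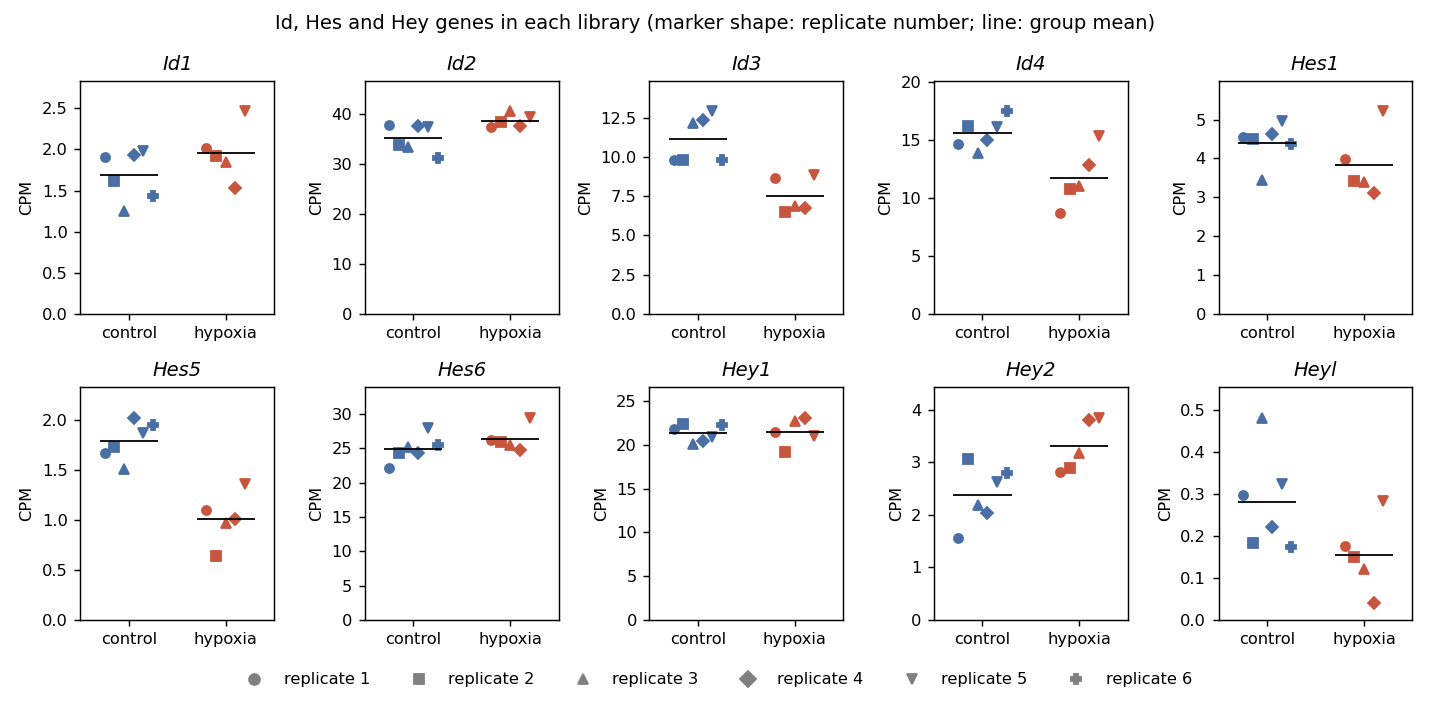
CPM of the 10 genes in each of the 6 control (blue) and 5 hypoxia (red) libraries, with marker shape giving the replicate number, a line at each group mean and each vertical axis starting at 0. All 5 hypoxia points lie below all control points for Id3 and Hes5, and hypoxia 5 (inverted triangle) is the highest red point for 8 of the 10 genes.

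Among the Hes genes, Hes5, a Notch effector of neural stem cells and glia (ENSMUSG00000048001, chromosome 4, 154960923 to 154962371), showed the largest change of the 9 genes tested. It was at 1.51 to 2.03 CPM in control with a median of 1.80, and at 1.10, 0.640, 0.967, 1.01 and 1.36 CPM in hypoxia 1 to 5. Every hypoxia library was below every control library, which held for 7.26% of all tested genes. The mean fell from 1.80 ± 0.193 to 1.01 ± 0.259 CPM (log2 fold change -0.82, SE 0.17, adjusted p = 0.00211). Counts behind Hes5 were low, from 17 to 43 per hypoxia library, and the 95% confidence interval ran from -1.17 to -0.46. The authors' deposited table lists Hes5 as lower, with a log2 fold change of -0.78 (adjusted p = 0.00148).

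Hes1, the Notch effector that also follows other signals (chromosome 16, 30064384 to 30067796), was at 3.44 to 4.97 CPM in control with a median of 4.52. In hypoxia 1 to 5 it was at 3.99, 3.43, 3.38, 3.11 and 5.21 CPM. Hypoxia 5 was thus the highest of all 11 libraries, while hypoxia 2, 3 and 4 were below every control library. With all libraries the log2 fold change was -0.19 (SE 0.13, adjusted p = 0.337, 95% interval -0.47 to 0.09). Without hypoxia 5 it was -0.34 and passed the threshold (adjusted p = 0.0418), without hypoxia 4 it was -0.12 (adjusted p = 0.580), and over all alternatives the adjusted p ran from 0.0418 to 0.580.

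Hes6 (chromosome 1, 91411483 to 91414038) was the most abundant Hes gene. It was at 22.1 to 27.9 CPM in control with a median of 24.8, and at 26.2, 25.9, 25.5, 24.7 and 29.5 CPM in hypoxia 1 to 5, so the groups overlapped. The log2 fold change was 0.08 (SE 0.06, adjusted p = 0.361), with a 95% interval from -0.04 to 0.21. It was 0.04 without hypoxia 5 (adjusted p = 0.674) and 0.13 without control 5 (adjusted p = 0.131). Read against each other within a library, which needs no scaling between libraries, Hes6 was 9.02 to 12.6 times the per-length level of Hes5 in control and 16.4 to 30.5 times in hypoxia. Hes6 made up 79.8 ± 1.92% of the per-length reads of the 3 Hes genes in control and 84.9 ± 1.88% in hypoxia.

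Of the Id genes, Id3, an inhibitor of E proteins induced by BMP (ENSMUSG00000007872, chromosome 4, 136143497 to 136145755), fell. It was at 9.80, 9.84, 12.2, 12.4, 12.9 and 9.81 CPM in control 1 to 6, and at 8.64, 6.48, 6.89, 6.75 and 8.85 CPM in hypoxia 1 to 5. Every hypoxia library was below every control library, which held for 7.26% of all tested genes. Hypoxia 1 and 5 lay nearer to the controls than the other hypoxia libraries. The mean went from 11.2 ± 1.49 to 7.52 ± 1.13 CPM (log2 fold change -0.57, SE 0.11, adjusted p = 0.00105). Id3 is in the authors' deposited table of lower genes with a log2 fold change of -0.53 (adjusted p = 5.02e-06).

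Id4, which is known in neural stem cells and astrocytes (ENSMUSG00000021379, chromosome 13, 48261228 to 48266026), also fell, with more spread in hypoxia. It was at 13.9 to 17.4 CPM in control with a median of 15.5, and at 8.64, 10.8, 10.96, 12.8 and 15.3 CPM in hypoxia 1 to 5. Hypoxia 1 to 4 were below every control library, and hypoxia 5 was inside the control range. The log2 fold change was -0.40 (SE 0.11, adjusted p = 0.0147) with all libraries and -0.52 without hypoxia 5 (adjusted p = 0.000846), with adjusted p-values from 0.000846 to 0.0460 over all alternatives. A log2 fold change of -0.38 is given for Id4 in the authors' deposited table (adjusted p = 0.00262).

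Id2, the most abundant Id gene and one that neurons express (chromosome 12, 25093799 to 25097140), did not pass the threshold and pointed the other way. It was at 31.2 to 37.8 CPM in control with a median of 35.5, and at 37.5, 38.3, 40.5, 37.6 and 39.4 CPM in hypoxia 1 to 5. The hypoxia libraries 2, 3 and 5 lay above every control library, and the other 2 lay inside the control range. The log2 fold change was 0.14 (SE 0.05, adjusted p = 0.0700), with a 95% interval from 0.03 to 0.25. The call depended on the scaling and on single libraries: the adjusted p was 0.0491 with RLE size factors, 0.0389 with DESeq2, 0.0215 without control 1 and 0.0434 without control 5, in a range up to 0.206. The authors' deposited table lists Id2 as higher, with a log2 fold change of 0.15 (adjusted p = 0.0470).

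Id1 (chromosome 2, 152736251 to 152737410), the Id gene best known as a BMP and vascular target, was low here. Its level was 1.25 to 1.98 CPM in control with a median of 1.77, and 2.02, 1.92, 1.85, 1.54 and 2.46 CPM in hypoxia 1 to 5, with overlapping groups. The log2 fold change was 0.23 (SE 0.15, adjusted p = 0.302), and its 95% interval from -0.09 to 0.56 leaves room for a fold change of up to 1.47. Without hypoxia 5, its highest library, the log2 fold change was 0.13 (adjusted p = 0.594), and without control 3, its lowest, it was 0.16 (adjusted p = 0.517). Within a library, the per-length level of Id2 was 2.02 to 2.84 times that of Id3 in control and 3.18 to 4.35 times in hypoxia. Id2 made up 55.2 ± 1.92% of the per-length Id reads in control and 64.1 ± 2.89% in hypoxia, and Id3 made up 23.8 ± 2.35% and 16.9 ± 2.07%.

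Among the Hey genes, Hey2, a Notch target of vessels, heart and stem cells (ENSMUSG00000019789, chromosome 10, 30832359 to 30842801), rose. It was at 1.55 to 3.06 CPM in control with a median of 2.41, and at 2.81, 2.90, 3.18, 3.80 and 3.85 CPM in hypoxia 1 to 5. The hypoxia libraries 3, 4 and 5 were above every control library, and control 1 was the lowest of all. The mean went from 2.38 ± 0.555 to 3.31 ± 0.494 CPM (log2 fold change 0.46, SE 0.15, adjusted p = 0.0320). This call was lost without control 3 (adjusted p = 0.0672), control 4 (0.0723), hypoxia 3 (0.0504), hypoxia 4 (0.0822) or hypoxia 5 (0.0760), and over all alternatives the adjusted p ran from 0.0160 to 0.0822. In the authors' deposited table Hey2 is higher by a log2 fold change of 0.54 (adjusted p = 0.00505).

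Hey1 (chromosome 3, 8663359 to 8667256) was the most abundant Hey gene and had the smallest difference of the 9 genes. It was at 20.1 to 22.3 CPM in control with a median of 21.3, and at 21.4, 19.2, 22.7, 23.1 and 21.0 CPM in hypoxia 1 to 5. The log2 fold change was 0.01 (SE 0.06, adjusted p = 0.899), and the 95% interval from -0.10 to 0.13 leaves out changes of the size seen in Hey2. The sign of so small a value turned under some alternatives. Heyl (chromosome 4, 123233556 to 123249875) had 5 to 15 counts per control library and 1 to 9 per hypoxia library. Pooled over a group, Heyl was at 0.282 CPM in control (46 counts, exact Poisson 95% interval 0.207 to 0.377) and at 0.161 CPM in hypoxia (21 counts, 0.0996 to 0.246). These intervals cover counting error only. With no filter on low counts Heyl had a log2 fold change of -0.79 (SE 0.42, adjusted p = 0.306).

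**Figure D3:**
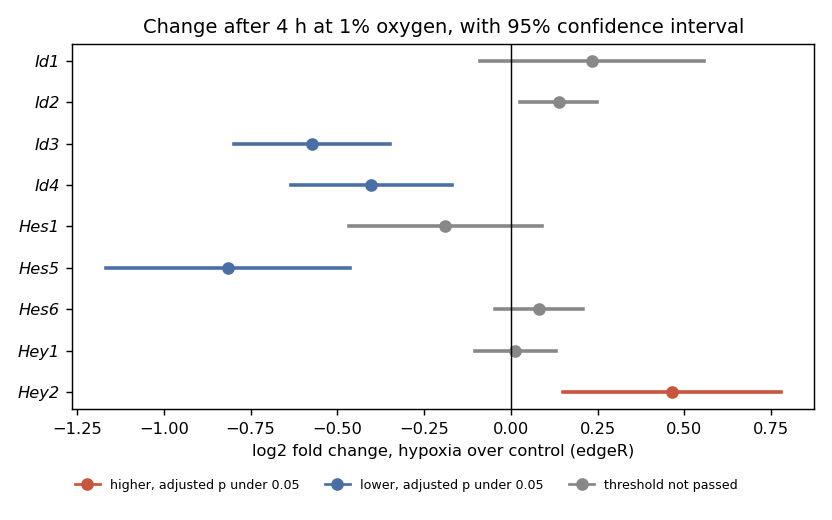
Log2 fold change of the 9 tested genes with its 95% confidence interval, blue for genes that fell, red for the gene that rose and grey where the threshold was not passed. Hes5, Id3 and Id4 lie to the left of 0, Hey2 to the right, and the intervals of Id1, Hes1, Hes6 and Hey1 include 0.

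**Figure D4:**
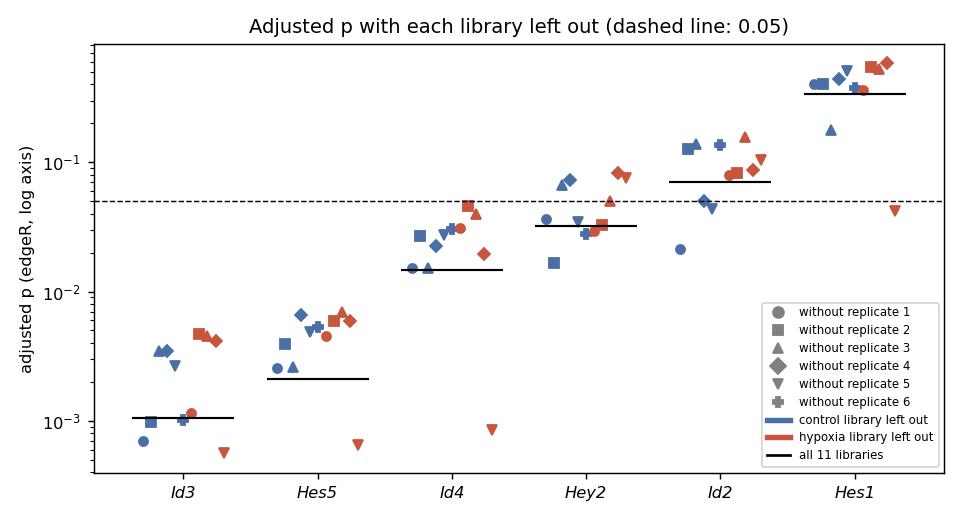
Adjusted p (log axis) of 6 genes with each library left out in turn, with colour giving the group and shape the number of the library left out, a solid line at the value with all 11 libraries and a dashed line at 0.05. Id3, Hes5 and Id4 stay under the dashed line in each of the 11 fits, and Hey2, Id2 and Hes1 have points on both sides.

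Genes upstream of the Notch targets were compared next. Counts of called genes in this list and those below stand beside the shares over all tested genes. Of those, 12.8% were called lower, 10.1% higher and 22.9% in either direction. Of 12 Notch ligands and receptors, all tested, 1 was higher and 3 were lower, and their log2 fold changes had a median of -0.19. The receptor Notch2 rose from 50.4 ± 4.54 to 57.9 ± 3.25 CPM (adjusted p = 0.0230), a call lost without hypoxia 1 (adjusted p = 0.0602, with 0.00478 to 0.0602 over all alternatives). Notch1 was at 24.8 ± 3.07 and 26.2 ± 2.64 CPM (adjusted p = 0.590). The ligand Dll1, which activates Notch in neighbouring cells, fell from 5.33 ± 0.592 to 4.47 ± 0.323 CPM (adjusted p = 0.0461). Jag1, another ligand, was at 8.42 ± 0.558 and 7.67 ± 1.00 CPM (adjusted p = 0.304). The other lower genes were the Delta-like gene Dlk2 (log2 fold change -0.39) and the ligand Jag2 (-0.39). These 3 calls lay near the threshold: leaving out a library ended that of Dll1 for 8 of the 11 libraries, that of Dlk2 for 7 and that of Jag2 for 8, and the highest adjusted p over all alternatives was 0.120, 0.116 and 0.131. DESeq2 called neither Dll1 nor Jag2.

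Of 26 tested genes that process or modify Notch, 1 was higher and 5 were lower, with a median of -0.08. Lfng, the Fringe glycosyltransferase that alters which ligands Notch answers to and is itself a known Notch target, fell from 7.88 ± 1.10 to 4.88 ± 0.543 CPM (log2 fold change -0.70, SE 0.10, adjusted p = 0.000171). The ubiquitin ligases Dtx4 and Neurl1b fell by 0.18 (adjusted p = 0.000565) and 0.19 (adjusted p = 0.00285) on the log2 scale. Beside these, Aph1c and Psen2, subunits of the gamma-secretase that cuts Notch, were lower (-0.31 and -0.20), and the Deltex gene Dtx2 was higher (0.32). The Psen2 call ended for 8 of the 11 libraries left out in turn (highest adjusted p 0.148) and with DESeq2 (0.0510).

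The RBPJ complex and its corepressors showed 3 genes higher and 2 lower of 17, with a median of 0.01. Rbpj itself, the DNA-binding partner of Notch, had a control mean of 9.76 ± 0.623 CPM and a hypoxia mean of 9.79 ± 0.438 CPM (log2 fold change 0.01, SE 0.06, adjusted p = 0.945). The Groucho genes, whose products work with Hes proteins, differed in direction: Tle3 rose from 31.3 ± 4.33 to 39.0 ± 2.10 CPM (adjusted p = 0.00818) and Tle2 fell from 12.7 ± 1.12 to 9.83 ± 1.56 CPM (adjusted p = 0.00690). Kdm5a, an H3K4 demethylase that works with RBPJ, rose by a log2 fold change of 0.23 (adjusted p = 0.00115). Snw1 was higher (0.13) and Tle1 lower (-0.12), calls that ended for 9 and for 10 of the 11 libraries left out in turn (highest adjusted p 0.106 and 0.145). Over all alternatives their adjusted p reached 0.168 and 0.171, and DESeq2 did not call Tle1 (0.0808).

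On the BMP side, none of 19 tested ligands and secreted inhibitors was higher in edgeR (0 in DESeq2, and 1 at an unadjusted p under 0.05) and 2 were lower, with a median of -0.01. Both of these are secreted antagonists that bind BMP ligands: Nog (noggin) fell from 1.89 ± 0.320 to 1.27 ± 0.170 CPM (log2 fold change -0.56, adjusted p = 0.0110) and Chrd (chordin) from 6.07 ± 0.554 to 4.51 ± 0.868 CPM (-0.43, adjusted p = 0.0114). The ligand Bmp4 was low in both groups, at 0.351 ± 0.157 and 0.353 ± 0.129 CPM (adjusted p = 0.984).

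Among 21 tested BMP and activin receptors, SMADs and their regulators, 6 were higher and 4 lower, with a median of 0.02. The type I receptor Acvr1 rose from 58.9 ± 2.58 to 88.1 ± 5.21 CPM (log2 fold change 0.58, SE 0.04, adjusted p = 2.15e-07). Smad1, one of the SMADs that carry the BMP signal to the Id genes, rose from 25.3 ± 2.47 to 33.0 ± 2.38 CPM (adjusted p = 0.000656). Smad3, of the TGF-beta and activin branch, rose from 13.3 ± 0.864 to 17.0 ± 1.16 CPM (adjusted p = 0.000738). The more abundant Smad5 was at 53.3 ± 0.939 and 53.95 ± 3.50 CPM (adjusted p = 0.81). Smad4 and Smad9 did not pass the threshold either (adjusted p = 0.78 and 0.26). The receptor Bmpr1a was at 82.8 ± 6.68 and 79.6 ± 3.98 CPM (adjusted p = 0.499). The lower genes were the pseudoreceptor Bambi (-0.34), the helix-loop-helix gene Atoh8 (-0.51), the ubiquitin ligase Smurf2 (-0.19) and the receptor Acvr1c (-0.30). The Bambi call was lost without control 2, control 5, hypoxia 1 or hypoxia 4 (adjusted p up to 0.0655), that of Atoh8 without control 3, control 5, hypoxia 1 or hypoxia 2 (up to 0.0752) and that of Acvr1c for 6 of the 11 libraries left out in turn (up to 0.0945). DESeq2 called neither Bambi (0.0504) nor Atoh8 (0.0929). The other higher genes were Smad7, an inhibitory SMAD (0.32, adjusted p = 0.00978), Smurf1, a ubiquitin ligase that acts on SMADs (0.16, adjusted p = 0.0134), and Smad2, of the TGF-beta and activin branch (0.19, adjusted p = 0.000975). In each of the 6 higher genes every hypoxia library lay above every control library, which held for 6.72% of all tested genes. Smad6, the other inhibitory SMAD, was too low to be tested.

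Of E proteins and other DNA-binding helix-loop-helix factors, the class in which Id proteins find partners, 6 were lower and 2 higher of 13 genes tested, with a median of -0.19. Whether Id proteins bind each of them was not tested. Neurod1, a neuronal differentiation factor, fell from 79.6 ± 7.96 to 48.8 ± 5.39 CPM (log2 fold change -0.71, SE 0.08, adjusted p = 7.62e-06). Nhlh2 fell from 9.58 ± 0.711 to 6.63 ± 1.18 CPM (adjusted p = 0.00150) and Olig1, of the oligodendrocyte lineage, from 54.0 ± 9.21 to 40.4 ± 3.23 CPM (adjusted p = 0.00427). The E protein gene Tcf12 rose by a log2 fold change of 0.16 (adjusted p = 0.00463). Other calls of this list were lost without single libraries: Neurod6 (0.13) without hypoxia 4 (adjusted p = 0.0538), Bhlhe22 (-0.19) without control 5, hypoxia 1 or hypoxia 2 (up to 0.0867) and Olig2 (-0.45) for 8 of the 11 (up to 0.113). DESeq2 did not call Olig2 (adjusted p = 0.0902). Of the other members of the Hes and Hey superfamily, Hes2, Hes3, Hes7 and Helt were too low to be tested, and the DEC genes rose: Bhlhe40 from 27.8 ± 5.20 to 71.2 ± 2.07 CPM (log2 fold change 1.35, adjusted p = 7.98e-08) and Bhlhe41 from 6.97 ± 0.499 to 10.8 ± 0.878 CPM (0.63, adjusted p = 1.72e-05).

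**Figure D5:**
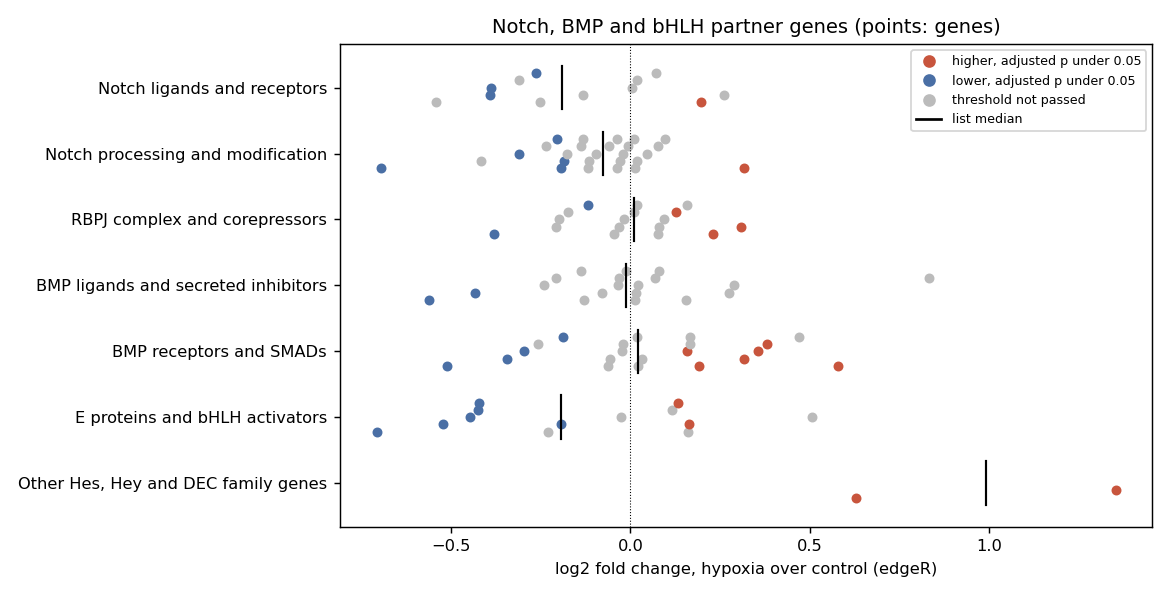
Log2 fold change of every tested gene of 7 lists, with 1 point per gene, blue for genes that fell, red for genes that rose, grey where the threshold was not passed, and a black line at each list's median. The medians of 6 lists lie between -0.19 and 0.02, and both DEC genes of the last list lie to the right of 0.

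Because these repressors are expressed in glia and progenitors as well as neurons, marker lists of the cell types that the cultures could hold were read in the same fit. Marker counts, too, stand beside 12.8% of all tested genes called lower and 10.1% called higher. Of 10 astrocyte markers, none was higher in edgeR and 1 was lower (Aqp4, log2 fold change -0.20, a call that ended for 7 of the 11 libraries left out in turn, with a highest adjusted p of 0.0774), and their summed levels ran from 3105 to 3388 CPM over the controls and from 3102 to 3392 CPM over the hypoxia libraries. Of 10 neural progenitor markers, 4 were lower and 1 higher, with sums of 764 to 967 CPM in control and 785 to 906 CPM in hypoxia. Of the lower progenitor markers, the transcription factor genes Sox2 and Pax6 fell from 22.4 ± 1.64 to 17.0 ± 2.64 CPM and from 9.64 ± 1.13 to 7.29 ± 0.813 CPM (adjusted p = 0.00388 and 0.00562). The progenitor marker Vim was higher, a call that ended without hypoxia 1 (adjusted p = 0.0666), Hopx was lower, a call that ended without hypoxia 1, 2 or 5 (up to 0.0737), and Fabp7 was lower, a call that ended for 9 of the 11 libraries left out in turn (up to 0.113). DESeq2 did not call Fabp7 (adjusted p = 0.0562). The part of these progenitor genes in the falls of Hes5, Id3 and Id4 was not tested.

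Oligodendrocyte lineage markers were lower for 3 of 9 tested (sums of 129 to 179 CPM in control and 112 to 144 CPM in hypoxia). None of 6 tested endothelial markers passed the threshold in edgeR (0 in DESeq2, with 1 higher and 2 lower at an unadjusted p under 0.05), and their sums were 28.3 to 40.1 CPM in control and 28.1 to 36.5 CPM in hypoxia, with Cldn5, Tek, Tie1 and Emcn too low to be tested. Of 7 tested mural markers 1 was higher (Pdgfrb, log2 fold change 0.56), with sums of 37.6 to 46.4 CPM in control and 41.8 to 56.2 CPM in hypoxia, and of 9 fibroblast and meningeal markers 1 was higher (Fn1, 0.39), with sums of 257 to 354 and 240 to 445 CPM. None of 8 tested microglial markers passed in edgeR (0 in DESeq2, with 1 higher at an unadjusted p under 0.05, and sums of 26.8 to 30.4 and 27.2 to 31.8 CPM). As a check of the labelled cell type, 10 pan-neuronal markers summed to 9158 to 10020 CPM in control and 9484 to 9982 CPM in hypoxia, and none of them passed the threshold in edgeR (1 higher in DESeq2, and 1 higher and 1 lower at an unadjusted p under 0.05). Excitatory neuron markers were higher for 3 of 10, with sums of 4109 to 4326 CPM in control and 4422 to 4681 CPM in hypoxia. Interneuron markers were higher for 1 and lower for 2 of 11, with sums of 685 to 838 and 718 to 832 CPM. The lower ones were Dlx5 (-0.80 on the log2 scale, adjusted p = 0.00372) and Dlx1 (-0.28, adjusted p = 0.00447), and both kept the call under all 18 alternatives. The higher one was Lhx6 (0.14, adjusted p = 0.0368). The Lhx6 call ended for 6 of the 11 libraries left out in turn (up to 0.0798) and with no filter on low counts (0.0592). No listed marker was at 0 in all libraries, and the part of any of these markers in the results was not tested.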

How the data were processed

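Gene expression was measured in 11 libraries of polyadenylated RNA, made with a kit that does not mark strand and read as single ends of 50 bases, per the labels' protocols. The authors deposited whole-number read counts per Ensembl gene ID, not normalized, 1 table per library. Reads on build mm10 were handled with STAR 2.5.2b, Subread 1.5.1 (featureCounts), FastQC 0.11.5 and DESeq2, per the submitters' processing notes. The annotation release is not given in the sources used here. Reads of the antisense genes that overlap Hes5 and Id4 could not be told from theirs. Gm20421 and A330033J07Rik, counted separately, had at most 10 counts in any library, which does not show how many reads fell in the overlaps. Gm49291, which also overlaps Id4, was not among the counted gene IDs. The authors also deposited log2 fold changes and adjusted p-values for genes they listed as changed, with a normalized signal per library that equals the count over 1 size factor per library, as checked by division.

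Counts were tested with edgeR 4.0.16 (R 4.3.3): filterByExpr by group, TMM factors, glmQLFit, 2-sided glmQLFTest of hypoxia against control with no covariate, and Benjamini-Hochberg adjustment over all 16235 genes tested. The SE is the log2 fold change over the square root of F, and intervals use its t quantile. Levels are mean ± SD of CPM. The fit was tested on simulated data. Alternatives were DESeq2 1.42.0, RLE factors, library totals, no filter, 1 CPM in 5 libraries, a robust fit, a replicate block and each library left out. Replicate numbers were not treated as pairs in the main fit, and the labels do not say whether they pair the libraries. Same-numbered libraries' deviations correlated at -0.103, 0.141, -0.057, -0.064 and 0.306, which cannot settle whether any were paired.

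The genes, the lists of related genes and the markers were chosen with earlier results of these data known. Besides the 10 genes, those named from each of 8 lists were the 3 called genes with the smallest p, or the most abundant gene where none was called, and 8 core genes (Notch1, Notch2, Dll1, Jag1, Rbpj, Bmp4, Bmpr1a and Smad1). Other list genes were named after their values were seen, and 1 item is not reported here. Protein ends were not analysed here.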

Additional observations from a re-analysis of the deposited data

Results flagged for a closer look

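None of the 10 Id, Hes and Hey genes had a library that stood apart from its group by Dixon's ratio, the gap to the nearest library over the group's range. Among 69 genes searched in both groups (138 groups of libraries, of which chance flags about 1 in 20), 7 values stood apart. Notch2 was at 41.4 CPM in control 1, with 50.7 to 54.1 CPM in the other controls. Notch1 was at 19.1 CPM in control 1, with 24.5 to 27.5 CPM in the others. The ligase Dtx4 was at 114 CPM in hypoxia 2, with 117 to 118 CPM in the other hypoxia libraries. Tle2 stood apart in both groups, at 14.9 CPM in control 6 (11.8 to 12.8 in the others) and at 12.6 CPM in hypoxia 1 (8.73 to 9.63 in the others). Bmpr1a was at 72.7 CPM in hypoxia 1, with 80.3 to 82.8 CPM in the others. The demethylase gene Kdm3a, a HIF target, was at 159 CPM in hypoxia 5, with 193 to 204 CPM in the other hypoxia libraries.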

How the results depend on the processing

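Under all 18 alternatives Id3, Id4 and Hes5 were called lower, so the number of these genes called lower was 3 with each of them except without hypoxia 5, where Hes1 joined them and it was 4. The number called higher was 1 with all libraries and ran from 0 to 2 with a library left out, and it was 2 with DESeq2 and 2 with RLE size factors, where Id2 joined Hey2. Over all genes, edgeR called 1644 higher and 2078 lower, and with a library left out 1385 to 2081 higher and 1500 to 2042 lower. The balance of directions moved with the scaling and the method. With library totals only, edgeR called 1443 higher and 2314 lower, and with RLE size factors 1872 and 1877. DESeq2 called 2041 higher and 1812 lower. Hey1 turned negative with library totals only (-0.00052) and without control 3, hypoxia 3 or hypoxia 4 (-0.0142 to -0.0029, with 0.0617 the highest value without a library). Rbpj turned with library totals only (-0.0047), with the replicate block (-0.0044) and without control 5, control 6, hypoxia 3 or hypoxia 4 (-0.0101 to -0.0011, highest 0.0460). Bmp4 turned with library totals only (-0.0003) and without control 1 or hypoxia 4 (-0.0697 to -0.0027, highest 0.1852). None of these 3 genes was called in any fit. The replicate block, in which control 6 had a block of its own and so added nothing to the contrast, called 1297 genes higher and 1649 lower and left the calls of the Id, Hes and Hey genes as they were, and hypoxia 2 and 5 alone correlated best with the control of their own number. The block ended the calls of 11 list genes, Dlk2, Dll1, Jag2, Psen2, Snw1, Tle1, Atoh8, Neurod6 (adjusted p = 0.0714), Bhlhe22, Vim (0.0607) and Lhx6 (0.0989), at adjusted p-values of 0.0509 to 0.168. Of 54 called list genes followed through the alternatives, 36 kept the call under every alternative and 18 lost it without at least 1 library. This count and that of the block leave out the HIF targets other than Kdm3a, Slc2a1 and P4ha1, which were not followed. The depth limits Heyl, at 1 to 15 counts per library, and Hes5, Id1 and Hey2, whose intervals are the widest of the tested genes.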
